A study of Mus musculus with 15 samples.

Results

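The enteroendocrine genes described here are 36 of the 43629 genes counted in cultured mouse intestinal organoids. They were taken as a list of gene symbols, each matched to 1 Ensembl gene, and fall into 10 peptide hormones, 3 genes of amine synthesis and storage, 9 proteins of the secretory granule, 10 transcription factors and 4 other markers. Organoids are closed epithelial structures grown in gel from intestinal crypts, here of C57B6/129 mice. WT comprised 5 libraries in ENR medium (EGF, Noggin and R-spondin 1), 4 from APC flox/flox lines 1, 2, 5 and 6 and 1 from a dox-naive culture (WT naive), in which an inducible Cas9 transgene had not been switched on. Apc comprised the same 4 lines as Apc delta/delta, and P-Rspo3 comprised 4 libraries of bulk, polyclonal cultures carrying the Ptprk-Rspo3 inversion made by that Cas9, labelled 15d, 4d, M and F. Both mutant groups were kept in EN medium, without R-spondin 1, so that genotype and medium cannot be told apart in either comparison with WT. The P-Rspo3 and naive cultures came from mice carrying R26-rtTA and the Cas9 transgene, unlike the flox lines. As a check of the labels, Rspo3 had an FPKM of 11.5, 6.26, 11.5 and 10.1 in P-Rspo3 15d, 4d, M and F, at most 0.0112 in WT and 0.0760 to 0.668 in Apc. The Apc transcript (FPKM 11.6 to 22.3 in WT and 28.3 to 30.5 in Apc) was counted over the whole gene, so it does not check the deletion of a part of it. Epcam, a general marker of epithelium, lay between 261 and 389 in all 13 libraries.

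Enteroendocrine cells are scattered secretory cells of the gut lining that sense nutrients and release peptide hormones and serotonin. They arise from crypt stem cells through a short-lived progenitor that switches on Neurog3, after which a series of transcription factors, among them Neurod1, Pax4, Pax6 and Isl1, directs them to the different hormones. Hormones and granins are stored together in dense-core granules, where prohormones are cut to their active forms. In bulk RNA, fewer cells of this kind and less RNA per cell cannot be told apart.

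In Apc organoids, 20 of the 34 enteroendocrine genes tested fell and none rose (edgeR quasi-likelihood test, adjusted p under 0.05 and a change above 1 on the log2 scale). Among all 16749 genes tested in this comparison 14.1% fell and 12.2% rose. An unadjusted p under 0.05 was reached by 26 of the 34, where 62.8% of all genes tested did. The hormones Gip, Cck, Gcg, Sst, Tac1 and Ghrl fell, and Sst and the ion channel gene Trpa1 had no count at all in the 4 Apc libraries. Of the 10 transcription factors, Lmx1a, Isl1, Pax6 and Nkx2-2 fell and the other 6, Neurog3 among them, were not called. In P-Rspo3 organoids, grown in the same medium as Apc, none of the 34 genes was called, where 0.00625% of all 15992 genes tested were called higher and 0% lower. Levels below are FPKM, fragments scaled to transcript length and library depth, and fold changes are log2 values of the counts with their standard error (SE). Ranges and overlaps between libraries were read on FPKM, which lacks the further scaling of the counts in the test. Over all genes, the median log2 change in Apc was 0.00 on the scaled counts and 0.17 or 0.28 on log2(FPKM + 1) or log2(FPKM + 0.1). FPKM thus sets Apc somewhat higher beside WT than the test does. Orders between genes follow the deposited FPKM, whose median ratio to a count scaled by exon length and depth ranged from 0.576 (Chgb) to 4.801 (Pax6) among these genes and was 3.19 for Tac1, so that they are approximate.

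The stretches of DNA just before the start sites of 5 hormone genes are shown to set the hormones that fell the furthest (Gip, Cck, Gcg and Sst) beside Sct, which was not called. They are RefSeq promoters on GRCm38, read 5′ to 3′ on the strand of the gene, 250 bases up to the start site for 4 genes and 30 bases around a match for Sst, where GENCODE places an exon of a longer transcript over the window. Capitals mark matches on either strand to CAGATG (an E-box of the kind bound by basic helix-loop-helix factors such as Neurod1), TGACGTCA (the cAMP response element) or CTTTGAT (a core of the TCF/LEF site). No 2 matches overlap in these sequences.
Gip, chr11:96024295-96024544, plus strand: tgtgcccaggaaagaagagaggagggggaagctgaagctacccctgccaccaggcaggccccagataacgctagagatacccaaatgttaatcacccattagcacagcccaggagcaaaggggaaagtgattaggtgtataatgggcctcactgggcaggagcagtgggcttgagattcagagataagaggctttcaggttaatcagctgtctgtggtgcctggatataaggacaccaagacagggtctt
Cck, chr9:121495695-121495944, minus strand: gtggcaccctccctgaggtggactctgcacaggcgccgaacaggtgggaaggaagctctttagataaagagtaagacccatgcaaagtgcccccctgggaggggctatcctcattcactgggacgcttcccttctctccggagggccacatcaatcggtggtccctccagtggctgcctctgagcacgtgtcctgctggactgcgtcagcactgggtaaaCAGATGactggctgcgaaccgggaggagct
Gcg, chr2:62483654-62483903, minus strand: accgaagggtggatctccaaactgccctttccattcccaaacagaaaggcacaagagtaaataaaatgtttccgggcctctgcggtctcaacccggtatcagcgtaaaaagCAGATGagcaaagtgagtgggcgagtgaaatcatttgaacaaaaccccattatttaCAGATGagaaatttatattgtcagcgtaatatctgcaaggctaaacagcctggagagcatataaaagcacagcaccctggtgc
Sst, chr16:23890874-23890903, minus strand: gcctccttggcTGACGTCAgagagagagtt
Sct, chr7:141279134-141279383, minus strand: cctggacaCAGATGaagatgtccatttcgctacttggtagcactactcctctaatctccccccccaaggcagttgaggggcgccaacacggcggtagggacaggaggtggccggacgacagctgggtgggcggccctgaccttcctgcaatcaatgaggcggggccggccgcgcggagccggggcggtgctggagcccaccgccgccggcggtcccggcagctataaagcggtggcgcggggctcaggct
Of the 36 genes, 30 had a promoter in the table. CAGATG or its reverse complement CATCTG was found in the 250 bases of 6 of them (Cck, Gcg, Insl5, Nkx2-2, Sct and Tac1), against 14.4% of all 32851 promoter windows of that length. TGACGTCA was found in 5 (Chgb, Pax6, Pcsk1, Scg2 and Sst), against 1.55% of all windows, and CTTTGAT or ATCAAAG in 1 (Tph1), against 3.21%. The promoters with a match belong both to genes that fell in Apc and to genes that were not called, and Gip, which fell the furthest among the hormones detected in Apc, had no match.

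Of the hormones, 6 of the 9 tested fell in Apc and the median change was -3.36 on the log2 scale, beside 0.00 for all genes tested. Gip encodes the incretin that amplifies insulin release after a meal, and was the most abundant hormone transcript in WT. Its FPKM was 30.5, 84.6, 91.5 and 67.5 in WT lines 1, 2, 5 and 6 and 135 in WT naive. In Apc lines 1, 2, 5 and 6 it was 0.0926, 0.156, 0.556 and 0.792. Every Apc library lay far below every WT library, and the log2 fold change was -7.85 ± 0.61 (SE; edgeR, adjusted p = 1.6e-06). In P-Rspo3 15d, 4d, M and F, Gip had 94.4, 3.38, 61.6 and 120, so that 3 libraries lay within the WT range and 4d below it.

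Cck encodes cholecystokinin, which drives gallbladder contraction and pancreatic enzyme release. Its FPKM was 8.97, 21.4, 26.6, 24.7 and 35.3 in WT lines 1, 2, 5, 6 and naive, and 0.315, 0.296, 0.602 and 0.677 in Apc lines 1, 2, 5 and 6. The groups did not overlap and the log2 fold change was -5.92 ± 0.46 (SE; edgeR, adjusted p = 1.6e-06). Gcg encodes proglucagon, the source of the glucagon-like peptides of the gut. Its FPKM was 1.83, 21.7, 13.4, 13.3 and 17.6 in WT, in the same order, and 0.138 to 0.412 in Apc. WT line 1 was low for Gcg, but still above every Apc library, and the log2 fold change was -6.12 ± 0.71 (SE; edgeR, adjusted p = 3.0e-05).

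Sst encodes somatostatin, the inhibitory hormone of D cells. It had 130, 186, 442, 482 and 457 counts (FPKM 6.13, 9.38, 22.4, 20.8 and 23.2) in WT lines 1, 2, 5, 6 and naive and 0 counts in each Apc library. Taking 3 counts per library as the least that could be told from none, Sst was at least 149-fold lower in Apc than in WT, and at least 50.8-fold lower than in P-Rspo3. Its FPKM in P-Rspo3 was 1.32, 0.819, 16.0 and 4.90 in 15d, 4d, M and F, where only the M library lay within the WT range.

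Tac1, the precursor of substance P, which enterochromaffin cells also make, had an FPKM of 11.9 ± 2.45 (SD, n = 5) in WT and 1.34 ± 0.397 (SD, n = 4) in Apc. The log2 fold change of Tac1 was -3.36 ± 0.25 (SE; edgeR, adjusted p = 1.1e-06), with no overlap between the groups. Ghrl encodes ghrelin, the hunger hormone. Its FPKM was 26.7, 16.6, 22.5, 16.9 and 28.4 in WT lines 1, 2, 5, 6 and naive, and 3.96, 11.2, 1.78 and 2.16 in Apc lines 1, 2, 5 and 6. It fell by 2.41 ± 0.47 on the log2 scale (SE; edgeR, adjusted p = 0.0012), and Apc line 2 was the closest to WT.

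Sct encodes secretin, which triggers bicarbonate secretion from the pancreas, and its FPKM was 8.84, 12.002, 16.0, 13.7 and 14.8 in WT lines 1, 2, 5, 6 and naive. In Apc lines 1, 2, 5 and 6 it was 7.46, 17.0, 5.77 and 7.30. In FPKM, which sets Apc higher than the test does, Apc line 2 exceeded every WT library and the other 3 lay below all of them. The log2 fold change of -0.73 ± 0.31 (SE) did not pass the test (edgeR, adjusted p = 0.066), and without Apc line 2 it was -1.17 ± 0.23 (adjusted p = 0.0018). Nts, for neurotensin, varied from 0.845 to 10.2 in WT and only from 2.31 to 2.81 in Apc, within the WT range. The log2 fold change of -1.34 ± 0.56 did not pass (edgeR, adjusted p = 0.062), and it was called without WT line 1 (-1.62, adjusted p = 0.0040) or without WT line 6 (-1.52, adjusted p = 0.043). Pyy and Insl5, hormones of the distal gut, were close to absent: Pyy had at most 6 counts in WT and 4 in Apc, and Insl5 at most 3 counts in any grouped library and was not tested.

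**Figure D1:**
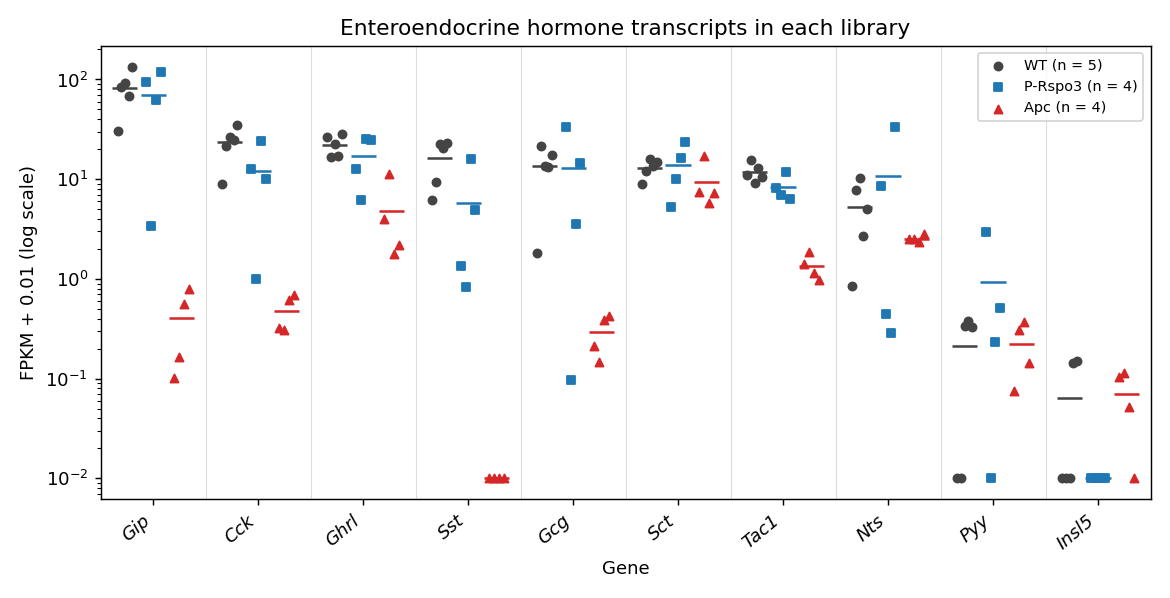
FPKM of the 10 hormone genes in each library (points; log axis, with 0.01 added so that 0 can be drawn; short lines are group means), ordered by the WT mean. Gip, Cck, Sst, Gcg, Ghrl and Tac1 have every Apc point below every WT point, and Sct and Nts overlap.

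The order of the hormones by level therefore differed between the groups. In WT it ran from Gip (mean FPKM 81.8) through Cck (23.4), Ghrl (22.2), Sst (16.4), Gcg (13.6), Sct (13.1), Tac1 (11.9) and Nts (5.29), and the ranges of each hormone and the next in this order overlapped. In Apc it ran from Sct (9.39) through Ghrl (4.79), Nts (2.53) and Tac1 (1.34) to Cck (0.472), Gip (0.399) and Gcg (0.282). Of the neighbours among these, only Nts and Tac1, and Tac1 and Cck, did not overlap. Summed over the 10 hormones, the FPKM was 94.9 to 270 in WT and 12.9 to 33.6 in Apc. Gip made up 32.1% to 49.9% of that sum in the WT libraries and 0.464% to 5.20% in the Apc libraries, while Sct made up 5.49% to 9.32% in WT and 44.6% to 50.6% in Apc. The hormone RNA left in Apc thus had another makeup, in each of the 4 lines.

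**Figure D2:**
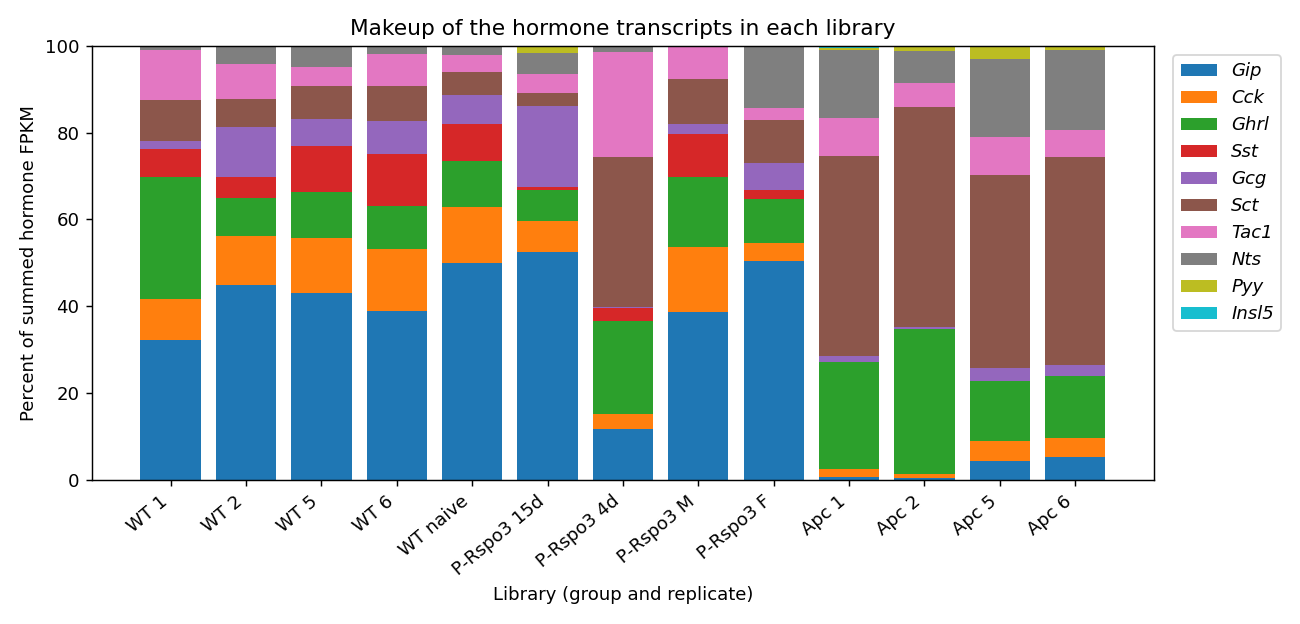
Share of each hormone gene in the summed hormone FPKM, in percent, for each of the 13 grouped libraries (stacked bars). Gip takes the largest share in all WT libraries, and Sct in all Apc libraries and in P-Rspo3 4d (34.7%).

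The genes of amine handling moved unequally. Tph1, the rate-limiting enzyme of serotonin synthesis, had an FPKM of 3.84, 4.62, 2.88, 2.84 and 1.98 in WT lines 1, 2, 5, 6 and naive and 0.223, 0.193, 0.168 and 0.274 in Apc lines 1, 2, 5 and 6. It fell by 4.16 ± 0.26 on the log2 scale (SE; edgeR, adjusted p = 3.7e-07) with no overlap. Ddc, the decarboxylase of the next step, which other epithelial cells express too, had 72.0, 54.4, 52.3 and 78.4 in the WT lines, 163 in WT naive and 14.4, 11.3, 13.8 and 11.007 in Apc. WT naive stood well above the other WT libraries, and the log2 fold change was -3.07 ± 0.35 (SE; edgeR, adjusted p = 2.4e-05). Slc18a1, the transporter that loads monoamines into granules, had 6.56, 4.56, 4.13, 4.99 and 5.64 in WT and 5.79, 12.5, 6.62 and 8.19 in Apc. Its log2 fold change of 0.35 ± 0.20 (SE) did not pass the test (edgeR, adjusted p = 0.16), and its sign differed from that of Tph1 and Ddc.

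Of the 8 granule genes tested, 5 fell in Apc. Chgb (chromogranin B) was the most abundant, with an FPKM of 61.9, 64.3, 45.2, 51.0 and 45.9 in WT lines 1, 2, 5, 6 and naive and 7.52, 9.46, 6.77 and 5.12 in Apc lines 1, 2, 5 and 6. Chgb changed by -3.15 ± 0.19 on the log2 scale (SE; edgeR, adjusted p = 2.8e-07). Chga (chromogranin A), the general marker of enteroendocrine cells, had 26.7, 26.7, 19.6, 16.1 and 18.0 in WT and 3.17, 6.17, 1.91 and 1.37 in Apc, with a log2 fold change of -3.02 ± 0.41 (adjusted p = 8.4e-05). Neither granin overlapped between the groups. Unlike Sst and Trpa1, both were still counted in every Apc library, Chgb with at least 863 counts and Chga with at least 149.

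Cpe (carboxypeptidase E), which trims cut prohormones, had an FPKM of 6.47, 8.28, 5.99, 6.51 and 5.48 in WT and 3.93, 10.1, 3.48 and 4.10 in Apc. In FPKM, which sets Apc higher than the test does, Apc line 2 was above every WT library and the others below all of them. Cpe was not called (log2 fold change -0.59 ± 0.30 SE; edgeR, adjusted p = 0.12), but was without Apc line 2 (-1.08, adjusted p = 2.5e-04). Pcsk1, the prohormone convertase of these granules, fell by 1.11 ± 0.29 and Scg5, a convertase chaperone, by 1.32 ± 0.40 (SE; edgeR, adjusted p = 0.0064 and 0.014). For both, Apc line 2 lay inside the WT range in FPKM, a range read without the further scaling of the test. The call for Pcsk1 was lost without Apc line 1 (-0.91) and with limma on log2(FPKM + 1) or log2(FPKM + 0.1) (-0.58 and -0.85), and that for Scg5 with all 3 groups in 1 fit (adjusted p = 0.063) and with limma on log2(FPKM + 1) (-0.51). Resp18, a protein of endocrine granules, fell by 3.87 ± 0.51 (SE; edgeR, adjusted p = 7.2e-05) from 1.82 ± 0.531 to 0.280 ± 0.355 FPKM (SD, n = 5 and 4), at no more than 6 counts per Apc library. The granins Scg2 (-1.15 ± 0.48, adjusted p = 0.058) and Scg3 (-0.78 ± 0.58, adjusted p = 0.27) were not called, and Pcsk1n, for a convertase inhibitor, was too low to be tested. In edgeR, Scg2 was called without WT line 1 (-1.35, adjusted p = 0.024) or without Apc line 2 (-1.87, adjusted p = 0.0018). Scg3 was called without Apc line 2 (-1.56; edgeR, adjusted p = 0.03).

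Apc line 2 thus stood apart among the Apc libraries. It held the highest FPKM of the 4 in 20 of the 32 genes tested that had a value above 0 in this group, or 62.5%, while among all genes tested it was the highest in 19.3%. Without it, 26 of the 34 genes fell, the 6 added being Sct, Scg2, Scg3, Cpe, Pax4 and Fev. Leaving out any other library gave 19 to 22. The goblet and Paneth marker sums were also highest in Apc line 2 among the Apc libraries, at 516 and 1598 FPKM against 203 to 364 and 657 to 915 in the other 3. The part of these markers in the enteroendocrine values was not tested.

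**Figure D3:**
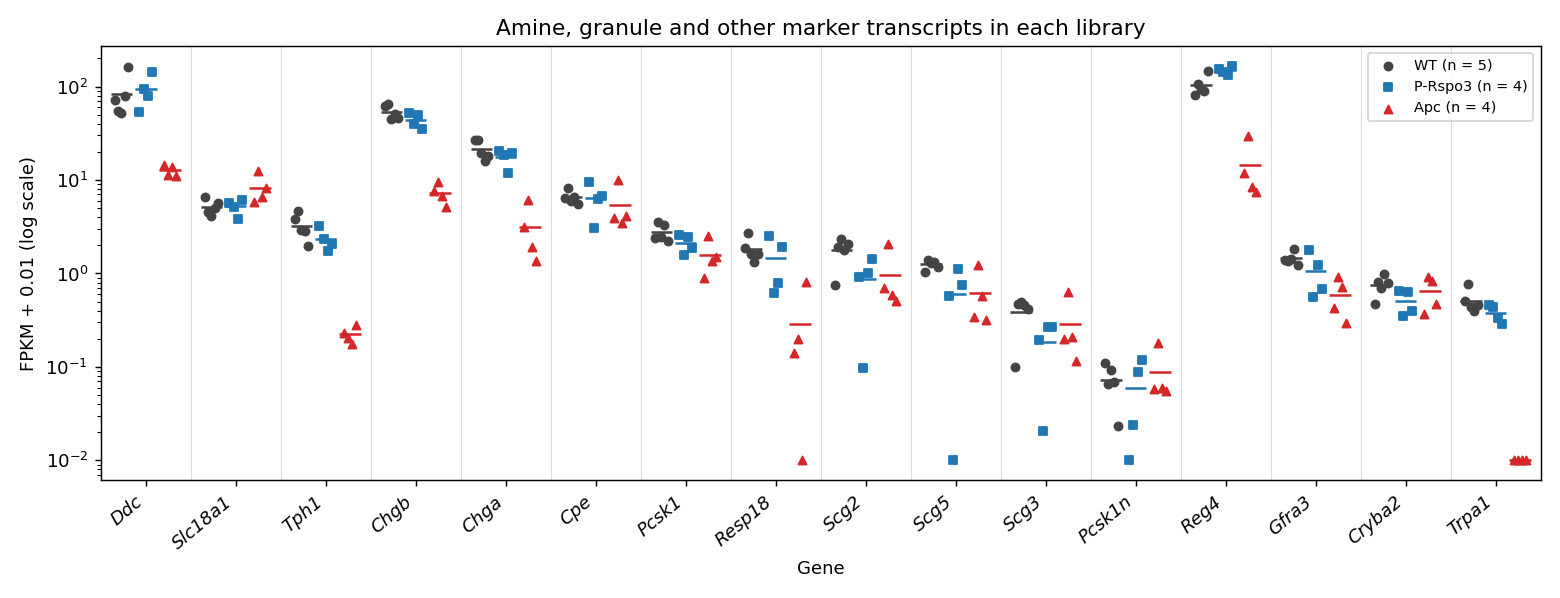
FPKM of the 3 amine genes, the 9 granule genes and the 4 other markers in each library (points; log axis, with 0.01 added; short lines are group means), ordered within each list by the WT mean. Tph1, Ddc, Chga, Chgb, Reg4, Resp18, Gfra3 and Trpa1 have no overlap between Apc and WT, whereas Slc18a1, Cpe, Scg3 and Cryba2 do.

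The transcription factors are ordered here by their usual place in the lineage. Neurog3 (chromosome 10, 62133090 to 62134763, plus strand) marks the endocrine progenitor and was the most abundant of the 10 in all 3 groups. Its FPKM was 11.3, 6.32, 4.65, 8.92 and 5.98 in WT lines 1, 2, 5, 6 and naive and 5.81, 9.95, 15.4 and 6.45 in Apc lines 1, 2, 5 and 6. The groups overlapped widely, and the log2 fold change was 0.07 ± 0.31 (SE; edgeR, adjusted p = 0.88), with a sign that turned when Apc line 5, the highest library, was left out (-0.26), when WT line 5 was left out (-0.05) or with the line as a block (-0.04). Neurod1, which follows Neurog3, had 1.90, 1.87, 1.71, 2.46 and 1.3995 in WT and 1.57, 2.99, 1.31 and 0.846 in Apc, and its log2 fold change was -0.42 ± 0.32 (adjusted p = 0.29).

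Insm1, a repressor of early endocrine cells, had an FPKM of 1.92, 1.43, 1.42, 2.97 and 1.68 in WT and 1.41, 1.84, 2.49 and 0.979 in Apc, and a log2 fold change of -0.47 ± 0.29 (edgeR, adjusted p = 0.20). Rfx6, needed for several hormone lineages, had 1.06, 1.28, 1.24, 1.63 and 1.16 in WT and 0.893, 1.54, 0.831 and 0.694 in Apc. Its log2 fold change of -0.65 ± 0.25 (SE) had an adjusted p of 0.047 and did not reach the threshold of size. Without Apc line 2, Neurod1 was at -0.86 ± 0.25 (adjusted p = 0.015), Rfx6 at -0.94 ± 0.21 (adjusted p = 0.0040) and Insm1 at -0.52 ± 0.33 (adjusted p = 0.22), all still under the threshold of size. In none of these 4 factors did Apc and WT separate in FPKM, and the Apc mean FPKM stayed between 77.7% (Rfx6) and 126% (Neurog3) of the WT mean. On the scaled counts of the test, which set Apc lower, their log2 fold changes ran from -0.65 (Rfx6) to 0.07 (Neurog3).

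Factors tied to later or particular fates gave mixed values. Lmx1a, a factor of serotonin-producing cells, had an FPKM of 0.436 ± 0.103 (SD, n = 5) in WT and 0.0249 ± 0.0168 (SD, n = 4) in Apc. Its log2 fold change of -4.45 ± 0.41 (SE; edgeR, adjusted p = 4.8e-06) was the furthest from 0 among the 10 factors, on 41 to 75 counts per WT library and 1 to 6 per Apc library. Pax6 and Isl1, homeodomain factors of hormone-producing cells, fell by 1.95 ± 0.38 and 2.16 ± 0.54 (SE; adjusted p = 0.0010 and 0.0054), with no overlap between groups in Pax6. With limma on log2(FPKM + 1), on whose scale low genes change less, Lmx1a, Pax6 and Isl1 kept an adjusted p under 0.05 but not the size needed for a call (-0.48, -0.42 and -0.50). Nkx2-2, which acts in many endocrine subtypes, had 2.26, 3.50, 1.99, 2.65 and 1.12 in WT and 1.21, 2.10, 1.999 and 1.16 in Apc. The groups overlapped in FPKM, whose ratio to a count scaled by length and depth varied from 1.56 to 3.47 between libraries for this gene. On the counts, Nkx2-2 was called at a log2 fold change of -1.04 ± 0.28 (SE; edgeR, adjusted p = 0.0072). Its size fell under the threshold without WT line 6 (-0.95) or Apc line 6 (-0.83), and with limma on log2(FPKM + 1) or log2(FPKM + 0.1) it did not pass (-0.31 and -0.45, adjusted p = 0.22 and 0.24).

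Fev, a factor of the serotonin lineage, had an FPKM of 2.03, 2.06, 1.54, 1.46 and 1.22 in WT and 0.889, 2.23, 0.832 and 0.282 in Apc. Among these 9 libraries Fev was highest in Apc line 2 by FPKM, but not by counts (81, against 96 in WT line 1). Its log2 fold change of -0.99 ± 0.41 (SE; edgeR, adjusted p = 0.058) did not pass, and it was called with the line number as a block (-1.24 ± 0.35, adjusted p = 0.021), the only 1 of the 34 calls that the block changed. Pax4 likewise was just outside (-1.08 ± 0.44, adjusted p = 0.053) and was called without WT line 2 (-1.25), WT naive (-1.22) or Apc line 2 (-1.41). In all, 4 of the 10 factors fell. Their summed FPKM was 15.1 to 23.0 in WT and 11.3 to 23.3 in Apc, where Neurog3 made up the largest part in each library.

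**Figure D4:**
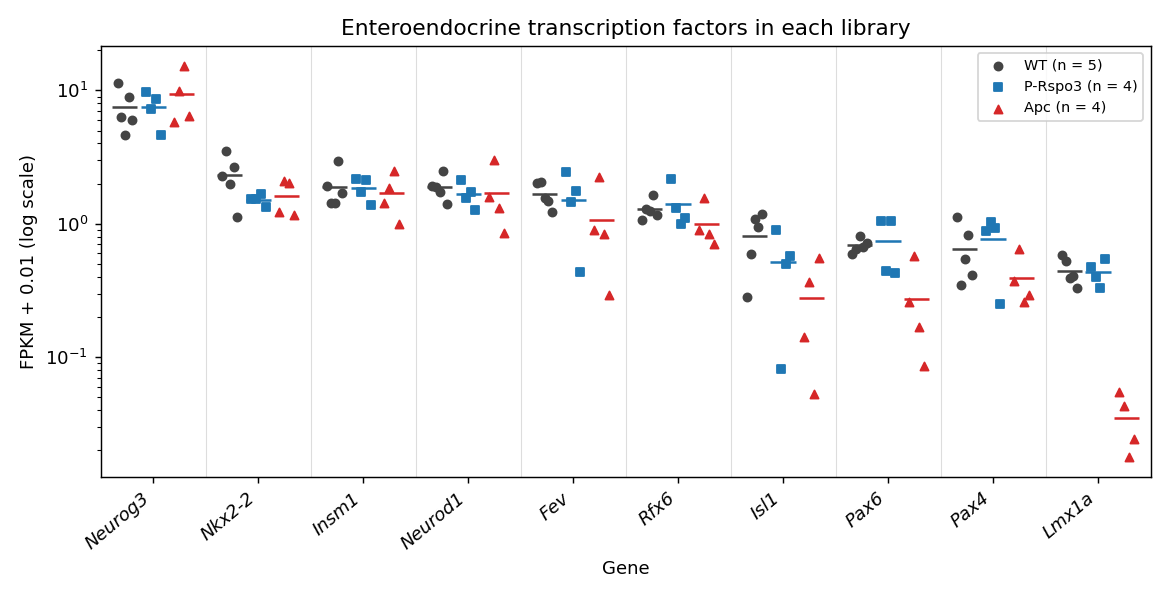
FPKM of the 10 transcription factors in each library (points; log axis, with 0.01 added; short lines are group means), ordered by the WT mean. Neurog3, Insm1, Neurod1, Fev, Rfx6 and Nkx2-2 overlap between Apc and WT, and every Apc point of Pax6 and Lmx1a lies below every WT point.

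Of the other markers, 3 of 4 fell in Apc. Reg4, a secreted lectin that goblet cells can also express, had an FPKM of 80.6, 108, 94.8, 90.0 and 146 in WT lines 1, 2, 5, 6 and naive and 11.98, 29.6, 8.37 and 7.48 in Apc. Reg4 changed by -3.12 ± 0.41 on the log2 scale (SE; edgeR, adjusted p = 7.3e-05). Gfra3, a receptor for a ligand of the GDNF family, had 1.37, 1.36, 1.43, 1.83 and 1.22 in WT and 0.421, 0.903, 0.701 and 0.288 in Apc (-1.60 ± 0.30, adjusted p = 9.1e-04). Both fell without overlap. Trpa1, the irritant-sensing channel of enterochromaffin cells, had 65 to 112 counts in WT and 0 in every Apc library, which makes it at least 34.8-fold lower. On the log2(FPKM + 1) scale of limma, Gfra3 (-0.64) and Trpa1 (-0.58) did not reach the size for a call. Cryba2, a crystallin gene, had an FPKM of 0.465, 0.804, 0.685, 0.973 and 0.789 in WT and 0.360, 0.916, 0.812 and 0.462 in Apc, overlapped and was not called (-0.35 ± 0.33, adjusted p = 0.39).

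Over the whole list, the median log2 fold change in Apc was -1.47, beside 0.00 for all genes tested, and is the same with Sst and Trpa1 at their bounds, since both bounds lie below it. In 16 of the 34 genes every Apc library lay below every WT library, against 16.6% of all genes tested. Of the 34, 32 had a log2 fold change below 0, the exceptions being Slc18a1 and Neurog3. DESeq2 called 24 genes lower in Apc, adding Nts, Scg2, Pax4 and Fev (adjusted p = 0.019, 0.020, 0.041 and 0.032) to the 20. With limma on log2(FPKM + 1) or log2(FPKM + 0.1), the median of all genes was 0.17 or 0.28 and that of the list -0.53 or -1.18.

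**Figure D5:**
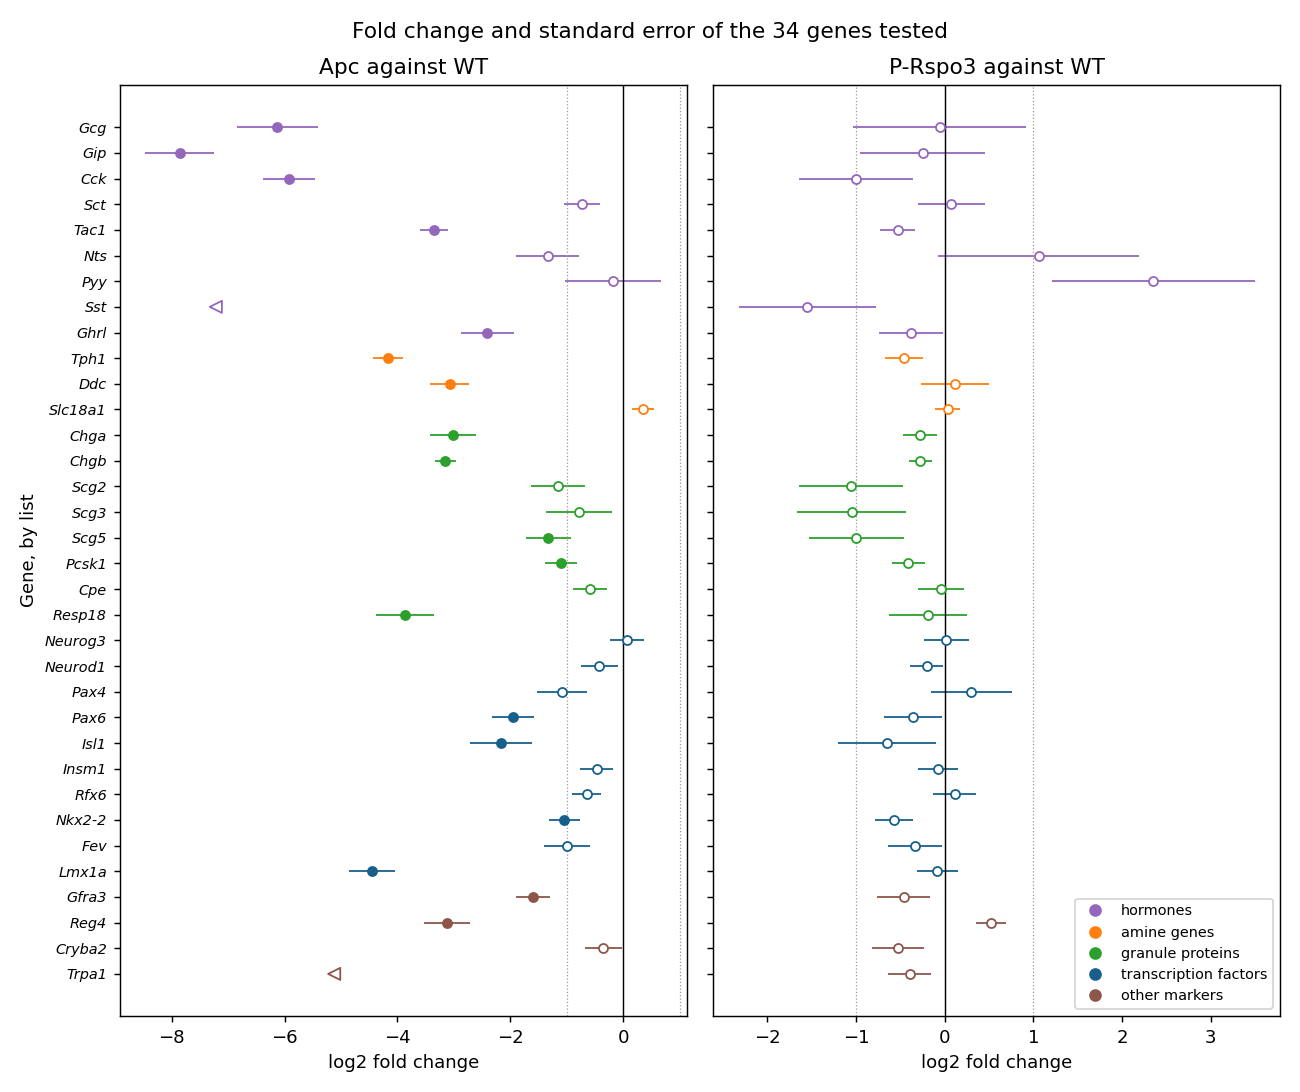
Log2 fold change of the 34 genes tested, in Apc against WT (left) and P-Rspo3 against WT (right; the scales of the panels differ), with standard errors as bars, filled points for called genes and colours for the lists. Open triangles are the bounds for Sst and Trpa1, dotted lines mark a change of 1, and no gene is called in P-Rspo3.

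In P-Rspo3, no enteroendocrine gene was called against WT. Of the 34 tested, 4 had an unadjusted p under 0.05 in edgeR, where 13.5% of all 15992 genes did, and DESeq2 and limma called none either. Among all genes, edgeR called 0.00625% higher and 0% lower, and DESeq2 called 55 genes higher and 173 lower. In none of the 34 did every P-Rspo3 library lie below every WT library, where 2.08% of all genes did. The median log2 fold change of the list was -0.28, beside 0.00 for all genes. The 4 genes were Reg4 (0.52 ± 0.17 SE, adjusted p = 0.22), Nkx2-2 (-0.58 ± 0.21, adjusted p = 0.27), Tac1 (-0.53 ± 0.20, adjusted p = 0.28) and Pcsk1 (-0.41 ± 0.18, adjusted p = 0.36). Chga differed by -0.28 ± 0.19, Chgb by -0.28 ± 0.13 and Tph1 by -0.46 ± 0.21, where these had changed by -3.02, -3.15 and -4.16 in Apc. Scg2 (-1.06 ± 0.58), Scg3 (-1.05 ± 0.62) and Scg5 (-0.998 ± 0.53) differed by more, without being called (adjusted p = 0.46, 0.49 and 0.45), beside -1.15, -0.78 and -1.32 in Apc. Both comparisons use the same WT libraries.

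Some hormones spread widely among the P-Rspo3 libraries. In WT, Gcg ranged from 1.83 to 21.7 FPKM, Cck from 8.97 to 35.3 and Nts from 0.845 to 10.2. Gcg had an FPKM of 33.6, 0.0877, 3.56 and 14.6 in 15d, 4d, M and F, and 1237 counts in 15d stood against 3 in 4d. Cck had 12.8, 0.978, 24.1 and 9.97, and Nts had 8.48, 0.433, 0.276 and 33.7. The 4d library was thus the lowest for Gcg and Cck, and F the highest for Nts. The standard errors of these genes were correspondingly wide: the log2 fold change was -0.06 ± 0.98 for Gcg, -0.25 ± 0.70 for Gip, -1.003 ± 0.64 for Cck, -1.55 ± 0.77 for Sst and 1.06 ± 1.13 for Nts. With a library left out, Cck stayed at -1.59 to -0.62 and Sst at -2.81 to -1.19. The sign of the other changes was not stable. Gcg turned without 4d (0.35), M (0.25), WT line 2 (0.19) or WT naive (0.06), Gip without 4d (0.15) or WT naive (0.02), and Nts without F (-0.83).

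The low values of 4d did not extend to every enteroendocrine gene. Among the 9 WT and P-Rspo3 libraries, 4d was the lowest in 14 of the 34 genes, or 41.2%, against 8.67% of all genes tested. These were the hormones Gip, Cck, Gcg, Sst and Ghrl, the granule genes Pcsk1, Cpe, Scg2, Scg3, Scg5 and Resp18, and Isl1, Gfra3 and Cryba2. Of the genes not lowest there, Chgb (39.6), Tac1 (6.92), Nts (0.433) and Pax6 (0.431) still lay below every WT library, whereas Chga (18.7), Tph1 (2.30) and Neurog3 (7.22) lay within the WT range. The Paneth marker sum was also lowest in 4d, at 3620 FPKM against 6068 to 8262 in the other P-Rspo3 libraries, whereas the goblet sum of 2606 was not; their part in the low hormone values was not tested.

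Against P-Rspo3, which shared its medium, 16 of the 34 genes were lower in Apc and none higher, where 13.3% of all 16456 genes tested were lower and 13.4% higher. Gip (-7.60 ± 1.12 SE, adjusted p = 3.4e-04), Cck (-4.91 ± 0.85, adjusted p = 8.8e-04), Tph1 (-3.68 ± 0.24, adjusted p = 2.2e-06), Chga (-2.72 ± 0.44, adjusted p = 6.2e-04) and Lmx1a (-4.36 ± 0.43, adjusted p = 2.8e-05) were among them. With limma on log2(FPKM + 1), Lmx1a (-0.48), Pax6, Resp18, Trpa1 and Pax4 lost the call, and on log2(FPKM + 0.1) Gcg and Pax4 did. In edgeR, Pax4 was called here (-1.37 ± 0.44, adjusted p = 0.026), but was lost in 6 of the 8 fits that left out a library, at adjusted p of 0.056 to 0.070. In 11 of the 34 no Apc library reached the lowest P-Rspo3 library, against 17.5% of all genes tested, and 18 had an unadjusted p under 0.05, against 60.9%. The median over the 34 genes was -1.54, beside 0.00 for all genes.

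Genes that act before, on or beside the enteroendocrine program were followed as 3 further lists. Over all genes tested, 14.1% fell and 12.2% rose in Apc. Of 14 genes of secretory commitment, 5 fell and 2 rose, the latter a share near that of all genes. Spdef (-2.79 ± 0.32 SE, adjusted p = 2.8e-05) and Gfi1 (-2.08 ± 0.24, adjusted p = 2.5e-05), factors of goblet and Paneth fates, were lower, and Sox4 (1.75 ± 0.21, adjusted p = 3.9e-05), an SRY-box factor, was higher. Of 10 receptors that act on enteroendocrine cells, most of them for nutrients, only 5 were expressed enough to be tested, of which 3 fell and 1 rose. Ffar3, a receptor for short-chain fatty acids, was at least 6.79-fold lower and Ffar1, for longer ones, at least 3.61-fold lower on low counts, while Ffar4, a long-chain fatty acid receptor, rose by 2.16 ± 0.23 (adjusted p = 1.7e-05). Without the FPKM filter, Gpr119 and Casr were called lower as well (edgeR, adjusted p = 5.6e-04 and 0.0032), at least 4.05-fold and at least 1.98-fold. Their counts in WT were low, at 4 to 21 for Gpr119 and 2 to 8 for Casr. Some WT libraries of Casr were thus themselves at or under 3 counts, so that its bound is uncertain.

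Of 12 tested genes of exocytosis, 2 fell in Apc, a share near the 14.1% of all genes. These were Ptprn (-4.03 ± 0.47, adjusted p = 3.1e-05) and Ptprn2 (-1.44 ± 0.39, adjusted p = 0.0086), both membrane proteins of dense-core granules. None of the 12 rose, and the list median was -0.12. Pam, the peptide-amidating enzyme, was kept out by its FPKM (at most 0.0888 in a grouped library), which was out of keeping with its counts. It had 458 to 718 counts in WT, 2256 to 3569 in Apc and 484 to 811 in P-Rspo3, and without the FPKM filter it rose in Apc by 1.89 ± 0.11 (SE; edgeR, adjusted p = 1.8e-08). None of the genes of these 3 lists was called in P-Rspo3 against WT, where 0.00625% of all genes were called higher and 0% lower.

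Markers of other cell types moved as well in Apc. All 8 enterocyte markers fell (median log2 fold change -9.36). Of 7 goblet markers 6 fell (median -3.74), of 7 Paneth markers 5 fell and Mmp7 rose, of 5 tuft markers tested 3 fell, and of 5 stem cell markers 4 rose and Olfm4 fell. Their part in the enteroendocrine values was not tested. Neurons share many of the enteroendocrine genes. Of 7 neuron markers, Ret was the only one tested and fell in Apc by 2.09 ± 0.24 (SE; edgeR, adjusted p = 3.0e-05). Tubb3 has no FPKM and had 12 to 65 counts in WT, 109 to 214 in Apc and 17 to 39 in P-Rspo3, and without the FPKM filter it rose in Apc by 1.75 ± 0.38 (adjusted p = 0.0019). Elavl3 had at most 4 counts in WT and 2 to 33 in Apc and also rose without the filter (adjusted p = 0.014), and Stmn2 had 0 in all 13 grouped libraries. The part of the neuron markers in the enteroendocrine values was not tested. Without Tubb3, the summed neuron markers came to at most 1.31 FPKM, the summed immune markers to at most 0.788 and the mesenchyme markers to at most 0.633. Of 6 markers of epithelium in general, Vil1 fell, Krt18 rose and Epcam, Cdh1, Krt8 and Cdx2 were not called, and their sum was 1347 to 1563 in WT and 1556 to 1880 in Apc.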

How the data were processed

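RNA of 15 organoid cultures was sequenced, and 13 libraries were grouped by their labels; in 2 libraries title and genotype conflict, and they entered no comparison. As deposited by the authors, the counts are unnormalized reads per gene from HTSeq 0.6.0 and the FPKM values are Cufflinks 2.2.1 output, both after STAR alignment to the GRCm38 build. Strand setting and annotation release are not given in the sources used here, so Ghrl, Resp18, Neurog3, Neurod1, Nkx2-2 and Pcsk1n, whose exons overlap other genes, are uncertain. Depth was 28902729 to 35528495 counts per library. Nothing says whether the P-Rspo3 libraries came from separate mice, so p-values measure the spread between these libraries.

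The quasi-likelihood test of edgeR 4.0.16 (R 4.3.3, TMM scaling) was fitted to the counts of each pair of groups separately. A gene entered if its FPKM reached 0.1 in at least 4 libraries, the size of the smaller group. A call needed both an adjusted p (Benjamini-Hochberg, all genes entered) below 0.05 and an absolute log2 fold change above 1; standard errors were derived from the fold change and its F statistic. All 36 members are named, with values per library for the 3 most abundant of each list and for transcription factors above an FPKM of 1 in WT, and the 3 called genes with the largest change in each further list; libraries singled out, and other values per library, were chosen after their values were seen. Members and lists were chosen with earlier results of these data known. Alternatives were DESeq2 1.42.0 (test, size factors), no FPKM filter, 1 fit of all groups, limma 3.58.1 on log2(FPKM + 1) and log2(FPKM + 0.1), the adjusted p alone, each library left out, and the line as a replicate block. The same line number in WT and Apc comes from the same line by the titles; deviations from group means correlated at 0.004 to 0.193 over the 4 pairs (-0.184 to 0.119 over 12 others). Among the 36 members, the ratio of deposited FPKM to a length-scaled count varied most between libraries for Pax6 (2.62 to 8.55), so its FPKM is less certain. The ratio also varied for Nkx2-2 (1.56 to 3.47), Isl1 (1.53 to 3.19), Resp18 (1.36 to 2.34) and Fev (0.893 to 1.50), with the same limit. The tests were checked on simulated counts. Promoters are RefSeq sequences on GRCm38.p6; gene positions are from GENCODE. Some values of single marker genes of other cell types are not reported here.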

Additional observations from a re-analysis of the deposited data

Results flagged for a closer look

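Among 97 sets of libraries (each gene within each group, with at least 10 counts in 1 library), 7 held a library far from the others on the FPKM scale, where chance gives about 1 in 20, so that this number is not far above what chance gives. Of these, 4 were Apc line 2, which was high for Sct (17.0 against 5.77 to 7.46 in the other Apc libraries), Scg2 (2.04 against 0.496 to 0.697), Cpe (10.1 against 3.48 to 4.10) and Pcsk1n (0.170 against 0.0451 to 0.0494). P-Rspo3 15d was high for Pyy (2.98, on 42 counts, against 0 to 0.504). WT naive was high for Ddc (163 against 52.3 to 78.4), and WT line 1 was low for Scg3 (0.0898 against 0.406 to 0.487).

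The library NAIVE_F, which was put in no group because its title and its genotype label conflict, exceeded the highest grouped library by more than 1.5 times in 8 genes. Its FPKM was 35.0 for Tac1 (WT 9.17 to 15.5), 7.60 for Tph1 (1.98 to 4.62), 45.4 for Chga (16.1 to 26.7), 160 for Chgb (45.2 to 64.3), 6.01 for Pcsk1 (2.195 to 3.51), 3.69 for Fev (1.22 to 2.06), 1.26 for Lmx1a (0.320 to 0.573) and 2.55 for Trpa1 (0.383 to 0.759). Ddc (82.5) and Slc18a1 (6.05) lay within the WT range in that library.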

How the results depend on the processing

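No enteroendocrine gene was called in P-Rspo3 against WT, and none rose in Apc, under any alternative run. The number that fell in Apc was 12 with limma on log2(FPKM + 1), on whose scale low genes change less (Pax6, Isl1, Lmx1a, Nkx2-2, Gfra3, Trpa1, Pcsk1 and Scg5 lost the call), and 19 to 26 when 1 library was left out; in Apc against P-Rspo3 it was 11 with limma on log2(FPKM + 1), 14 on log2(FPKM + 0.1) and 15 to 21 with a library left out. Over all genes, limma on log2(FPKM + 1) called 1132 lower in Apc against WT, and 1430 higher and 1124 lower in Apc against P-Rspo3; the adjusted p alone called 5028 higher and 4864 lower, and 4719 and 4557. Leaving out a library gave 1960 to 2149 higher and 2183 to 2441 lower, and 2130 to 2459 and 2111 to 2290. In P-Rspo3 against WT the counts over all genes, 1 higher and 0 lower, became 55 and 173 (DESeq2), 2 and 11 (no FPKM filter), 14 and 61 (all 3 groups in 1 fit), 3 and 4 or 2 and 1 (limma, pseudocount 1 or 0.1), and 1 to 166 and 0 to 100 with a library left out, the highest without WT naive; the cause was not tested. Of the calls in Apc, higher calls were 46.4% of the total, and 55.6% or 59.9% with limma on FPKM.

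Of 862 values of single genes under alternatives, 25 lost a call, 16 gained 1 and 12 changed sign, none of the last for a called gene. With the replicate block 21 genes fell in Apc, Fev being added, Neurog3 was -0.04 and no other call changed. Neurog3 was -0.26 to 0.25 with a library left out. Against WT, Gcg in P-Rspo3 ranged from -1.06 to 0.35, Gip from -0.68 to 0.15 and Nts from -0.83 to 1.47, and Nts was -0.08 and -0.55 with limma at pseudocount 1 and 0.1. Depth limits Pyy, Insl5 and Pcsk1n, and 3 counts per library is the least read as a signal.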

Other observations

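The other library in no group, LIPO, exceeded all grouped libraries in 3 of the 36 genes, and NAIVE_F in 15. The summed hormone FPKM was 136 in LIPO and 222 in NAIVE_F, both within the WT range of 94.9 to 270, whereas the summed granule gene FPKM was 99.6 in LIPO and 226 in NAIVE_F, beside 76.8 to 109 in WT. In NAIVE_F, Neurog3 (9.57), Sst (17.1) and Gip (103) lay within the WT range and Nts (0.189) below it.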
